A study of Mus musculus with 2 samples.

Results

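The Ifitm genes encode small proteins of the plasma membrane and the endosomes that hinder enveloped viruses at the step where viral and cellular membranes fuse. Ifitm1, Ifitm2, Ifitm3 and Ifitm6 were described here in single cells of the mouse lung. They were taken by their symbols, which made them 4 of the 31053 genes counted and 4 of the 7 Ifitm genes. The 4 genes were selected on their UMI levels across these cell classes and treatments, so levels and folds below describe them and carry no test.

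Lung cells came from female C57BL/6J mice in 3 treatments. Control mice received Alum without ovalbumin (OVA) into the peritoneum and then saline into the nose. Asthma mice received OVA with Alum into the peritoneum and then intranasal OVA, and tolerance mice inhaled OVA ahead of the same asthma protocol. All 3 groups thus had Alum. Lungs of 8 animals were combined, and the cells of each treatment made up 1 pool. The 3 pools were tagged with hashtag antibodies and run together in 2 lanes of the 10x system, so the lanes are technical repeats and no spread between mice can be had. No age was given in the labels. The sort aimed at dendritic cells (DCs), high in MHC-II and CD11c and negative for MerTK, CD64 and Ly6C, and at alveolar and interstitial macrophages. Monocytes, neutrophils, endothelial cells and lymphocytes were outside its aim and entered as a remainder, so the number of such cells per pool is set by the gate.

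The 6 libraries held 7897139 to 11459855 unique molecular identifiers (UMIs), each standing for 1 captured transcript, in 10901 barcodes. After filters 9856 cells were kept, with a median of 4473 to 6636 UMIs per cell and library. No barcode was shared between lanes or between pools of a lane. A cell was put in a class when it held at least 3 markers of that class, and 2 more than of any other type, which placed 8203 cells and left 1653 in no class. The gate itself selects on the listed markers, so their presence describes the classes and does not test their names. Chil3 was found in 99.94% of alveolar macrophages, C1qa in 99.21% of interstitial macrophages and Ace in 84.35% of nonclassical monocytes. Cd209a was found in 93.43% of type 2 conventional DCs (cDC2), S100a8 in 100% of neutrophils and Cldn5 in 97.44% of endothelial cells. Some listed markers were sparse. Folr2 was found in 8.454% of interstitial macrophages, Ffar2 in 18.65% and Cd209e in 33.57% of cDC2, and Vcan in 36.73% of classical monocytes. The border of some classes was narrow: 52.75% of cDC2, 38.97% of interstitial macrophages and 36.73% of classical monocytes led by exactly the 2 markers required, against 4.143% of alveolar macrophages.

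Interferons act through their receptors and the Jak kinases on transcription factors, among them Stat2 and Irf9, that bind the interferon-stimulated response element (ISRE) of their target genes. The GAS element serves mainly the response to interferon-γ. Ifitm3 acts mainly in endosomes and is a textbook interferon-induced gene that limits influenza virus in the lung. Ifitm1 sits mainly at the cell surface, Ifitm2 resembles Ifitm3, and Ifitm6 is a less studied rodent member.

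The 4 genes lie side by side on chromosome 7 of the mouse (GRCm38.p6), within 62.1 kb from position 140954837 to 141016892. Ifitm2 occupies chr7:140954837-140959686 on the minus strand, Ifitm1 chr7:140967429-140969827 on the plus strand, Ifitm3 chr7:141009590-141010744 on the minus strand and Ifitm6 chr7:141015812-141016892 on the minus strand. Their start regions (RefSeq, 250 bases before to 50 after the start, GRCm38.p6) were searched on both strands for an ISRE core (GAAA, any 2 bases and GAAA again), a GAS element (TTCNNNGAA) and a TATA box (TATAAA). An ISRE core stands in 3.44% of the 32851 promoters of this length, a GAS element in 8.3% and a TATA box in 13.6%. The following 30-base stretches are shown because Ifitm2 and Ifitm3, which contrast in the comparisons of the treatments, both hold ISRE cores. Each is written 5′ to 3′ along its gene, with the matched letters in capitals.
Ifitm2, chr7:140955988-140956017, minus strand: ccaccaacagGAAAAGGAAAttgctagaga
Ifitm3, chr7:141010715-141010744, minus strand: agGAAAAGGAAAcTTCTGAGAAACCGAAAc
Ifitm6, chr7:141016883-141016912, minus strand: ccatatgaacTTCCTTGAAacaagagcttc
Ifitm6, chr7:141016919-141016948, minus strand: acaatggttcTATAAAagtgcctgtgactc

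Ifitm3 held 2 ISRE cores, at bases 3 to 12 and 20 to 29 after its start, with a GAS match at 14 to 22 that overlaps the second core. Ifitm2 held 1 ISRE core, with the same 10 letters as the first core of Ifitm3, at bases 46 to 37 before the RefSeq start used, and a TATA box match on the other strand at bases 175 to 170 before it. Ifitm6 held a GAS match at bases 10 to 2 and a TATA box at bases 46 to 41 before its start, and no ISRE core. Ifitm1 held no match to the 3 motifs in this window. The RefSeq starts used for Ifitm1 and Ifitm2 lie inside the annotated spans of these genes. In the GENCODE vM21 annotation of the same build the Ifitm3 stretch and the GAS stretch of Ifitm6 overlap the untranslated part of an exon, the TATA stretch of Ifitm6 lies in the gene outside its exons, and the Ifitm2 stretch lies in no gene of that annotation. A match is a matter of letters, and binding was not measured.

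The sequences also bear on how the reads could be assigned. Of all 50-base windows of the Ifitm2 transcript, 48.5% were shared with Ifitm3 or with pseudogenes, including 69 of the 251 windows in its last 300 bases, where 3′ reads fall. None of the 251 last windows of Ifitm3 or of Ifitm1 was shared, and none of any Ifitm6 window. The level of Ifitm2 is therefore uncertain by the reads that could not be placed, and levels below are compared across cells for 1 gene at a time. The ratios and correlations of Ifitm2 with Ifitm3 carry the same limit.

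With the 3 pools added, Ifitm3 was high in monocytes and endothelial cells, intermediate in neutrophils, cDC2 and interstitial macrophages, and low in alveolar macrophages and lymphocytes. Ifitm2 had its highest level in neutrophils. Ifitm6 had its highest levels in the monocyte classes and neutrophils, and Ifitm1 in neutrophils and a few basophils or mast cells. Levels are UMIs per 1000000 UMIs of the class (CPM) over all 3 pools, followed by an exact 95% Poisson interval. This and the other intervals below cover counting error only. The pools enter the classes unequally, and only 44 of the 757 interstitial macrophages were control cells. In the control lanes these held 139.7 and 174.4 CPM of Ifitm3, inside the B cell library range of 18.21 to 420.5 CPM.

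Ifitm3 reached 4474 CPM (4250–4706) in 49 classical monocytes and 3846 CPM (3731–3964) in 345 nonclassical monocytes, the patrolling cells of the vessel wall. The 4 libraries with at least 5 classical monocytes gave 3902 to 5715 CPM with a median of 4704, and the nonclassical monocytes 3602 to 4702 CPM with a median of 3777.5, so both classes overlapped from library to library. Endothelial cells followed with 3346 CPM (3159–3540) in 195 cells and a library range of 1947 to 4798 CPM, which overlapped both monocyte classes. Neutrophils stood below them with 1930 CPM (1697–2187) in 74 cells and libraries of 888.9 to 2380 CPM, which overlapped the endothelial range.

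In cDC2, the DCs that present inhaled antigen to helper T cells, Ifitm3 reached 1103 CPM (1072–1135) over 563 cells, and in interstitial macrophages 840.8 CPM (815.6–866.7) over 757 cells. Mature Ccr7+ DCs held 409.3 CPM and cDC1, the DCs that cross-present antigen to killer T cells, 328.4 CPM. Library ranges of these 4 classes overlapped each other, from 16.05 CPM in a cDC1 library to 1286 CPM in a cDC2 library. Alveolar macrophages, the resident scavengers of the airspace, held 57.6 CPM (54.75–60.55) over 4972 cells, and their libraries ran from 9.874 to 139.5 CPM. The fold of nonclassical monocytes over alveolar macrophages was 66.78 (62.98–70.84) over all pools, a value that averages unequal pools. The levels were 3647 against 10.4 CPM in the control, 3711 against 91.94 CPM in the asthma and 4210 against 122.7 CPM in the tolerance pool, the same direction in 3 of 3. Alveolar macrophages made up 50.45% of the kept cells and held 4.591% of the Ifitm3 UMIs, while nonclassical monocytes held 12.58% of them in 3.5% of the cells.

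Ifitm2 was ordered differently at the top. Neutrophils held 2907 CPM (2619–3218), and their libraries ran from 1774 to 3683 CPM. Nonclassical monocytes held 1504 CPM (1432–1578) with libraries of 1244 to 2000 CPM, so the libraries of the 2 classes overlapped at their ends. Endothelial cells held 1417 CPM and classical monocytes 1193 CPM. Between neutrophils and nonclassical monocytes the 2 genes thus ran in opposite directions: Ifitm2 was 1.933-fold higher in neutrophils, and Ifitm3 was 1.992-fold higher in nonclassical monocytes. The lead of the neutrophils in Ifitm2 was smaller under other settings: with a floor of 1200 genes per cell they held 1652 CPM and the nonclassical monocytes 1374 CPM. With classes from clusters the neutrophils held 2024 CPM and the classical monocytes 1825 CPM. Below these classes came cDC2 with 576.5 CPM, interstitial macrophages with 368.2 CPM, mature DCs with 322.3 CPM, cDC1 with 168.8 CPM and alveolar macrophages with 63.88 CPM. The span was narrower than for Ifitm3, with a fold of 23.54 (21.99–25.21) between nonclassical monocytes and alveolar macrophages.

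Ifitm6 was found chiefly in classical monocytes, with 628 CPM (545.9–718.9), nonclassical monocytes, with 505.3 CPM (464.1–549.2), and neutrophils, with 234.5 CPM (158.2–334.7). Classical monocyte libraries ran from 432.4 to 919.6 CPM and nonclassical ones from 423.6 to 693.2 CPM, so these neighbours did not separate. The order of the 3 classes depended on the processing: classical monocytes held 294.3 CPM with a lead of 1 marker and 1045 CPM with classes from clusters, and neutrophils 508.2 CPM with a floor of 1200 genes. cDC2 held 36.15 CPM (30.72–42.27), and the nonclassical monocytes lay 13.98-fold (11.69–16.8) above them. With classes taken from clusters of cells instead of single-cell markers, that fold was 7.624. Interstitial macrophages held 6.428 CPM and alveolar macrophages 0.6736 CPM. No Ifitm6 UMI was found in 195 endothelial cells, which allows a share of up to 1.874% (exact binomial) of such cells with a UMI, although these cells held much Ifitm3.

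Ifitm1 was high in few classes. Among classes of at least 20 cells it reached 2337 CPM (2079–2617) in neutrophils, with libraries of 860.3 to 3216 CPM, and 81.51 CPM (73.24–90.46) in cDC2, with libraries of 3.51 to 146.2 CPM, a fold of 28.67 (24.5–33.54). Only 74 neutrophils stood behind the first value, and with a floor of 1200 genes per cell the fold over cDC2 was 10.14. Nonclassical monocytes held 73.88 CPM, but 2 cells carried 79.01% of these UMIs, and the level was 37.81 CPM without the top cell and 16.94 CPM with classes from clusters. Classical monocytes held 20.93 CPM and endothelial cells 19.48 CPM. Interstitial and alveolar macrophages held 2.611 and 1.684 CPM, and B cells no UMI in 554 cells. Outside these classes, 7 basophils or mast cells held 133 Ifitm1 UMIs, 9550 CPM (7996–11320), with at least 1 UMI in 7 of the 7 cells. Neutrophils held 19.61% of all Ifitm1 UMIs in 0.7508% of the kept cells. More of them stood in cDC2, 23.21% in 5.712% of the cells, and in the cells of no class, 35.67%.

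**Figure D1:**
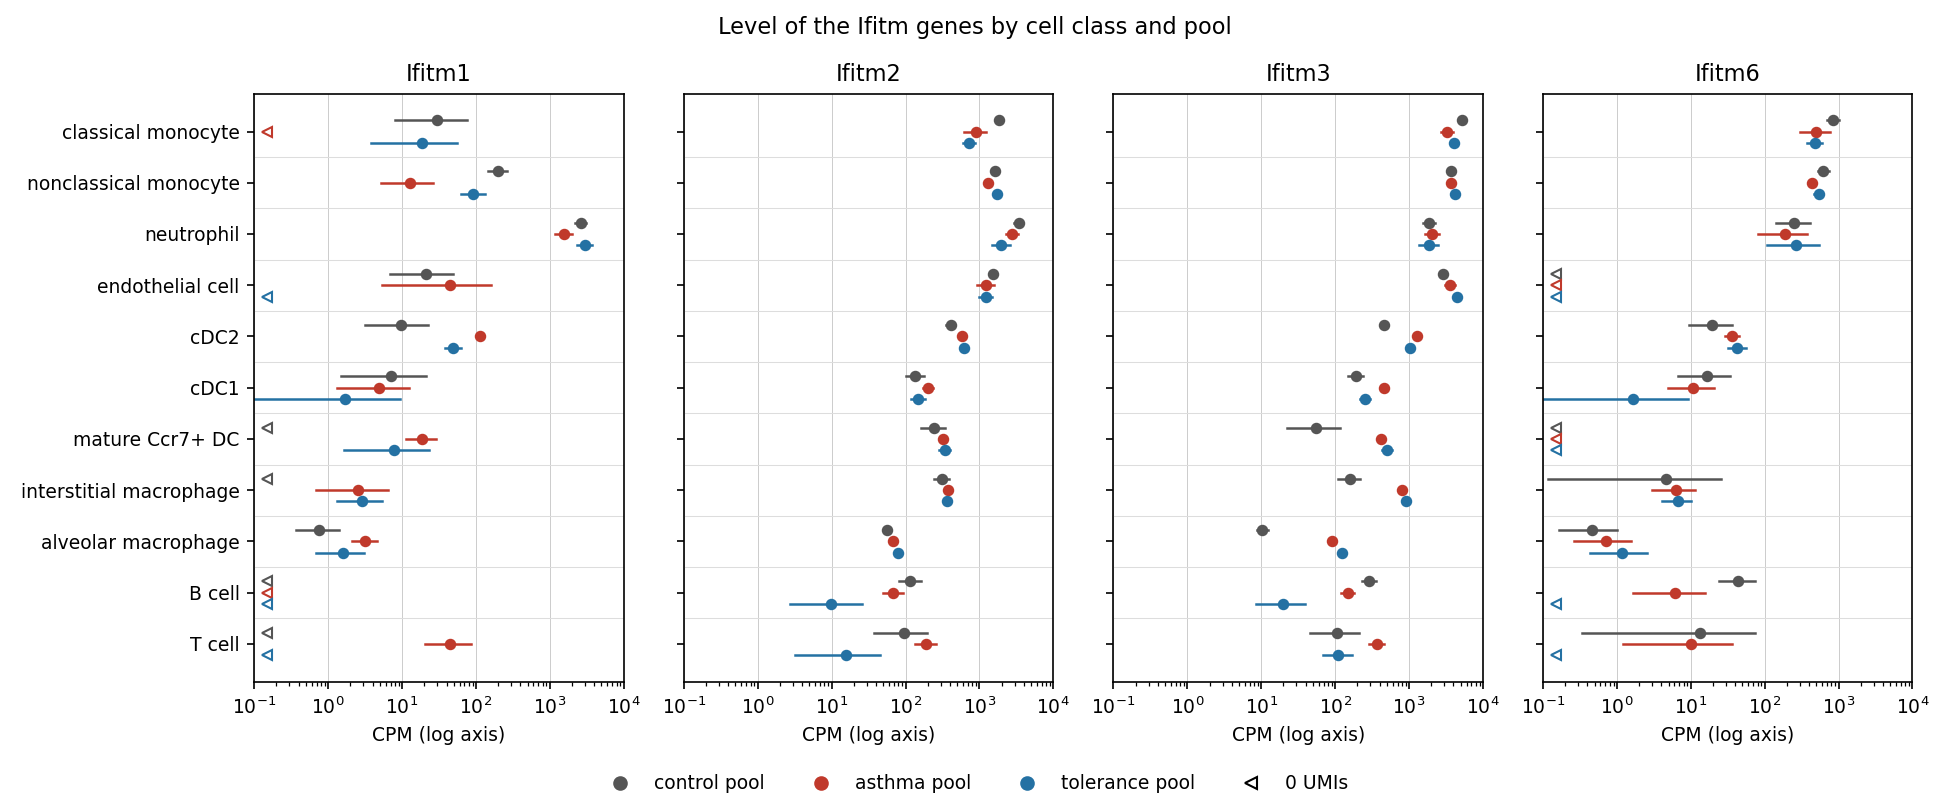
Level of Ifitm1, Ifitm2, Ifitm3 and Ifitm6 in CPM (log axis) in each cell class, 1 point per pool with its exact Poisson 95% interval; an open triangle marks a pool with no UMI of the gene. The Ifitm3 points of alveolar macrophages, interstitial macrophages and mature DCs are lower in the control pool, whereas the points of the nonclassical monocytes lie close together.

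The share of cells with at least 1 UMI gave the same order at the top, but depth moves it. Ifitm3 was found in 98.84% of nonclassical monocytes (median of 2301 UMIs per cell), 90.26% of endothelial cells (1570 UMIs), 80.46% of cDC2 (7183 UMIs), 72.26% of interstitial macrophages (6130 UMIs) and 10.76% of alveolar macrophages (4979.5 UMIs). With each cell thinned to 1000 UMIs the shares were 95.27%, 83.02%, 47.18%, 39.9% and 3.572%. B cells, a class with low levels of these genes here, served for comparison and had Ifitm3 in 6.137% of cells (1863.5 UMIs), or 3.498% when thinned. The thinned share of alveolar macrophages was 0.8455% in the control pool, under that of the B cells, and 5.54% in the asthma and 7.416% in the tolerance pool, above it. Most Ifitm3 of the B cells stood in few cells: 11 cells with at least 5 Ifitm3 UMIs held 170 of the 198 UMIs, and all 11 also held at least 2 markers of another class, against 12.31% of the B cells without Ifitm3. Of the alveolar macrophages, 77 cells with at least 5 Ifitm3 UMIs held 816 of the 1539 UMIs, and 63.64% of them held at least 2 markers of another class, against 29.59% of those without Ifitm3. Cells with at least 5 Ifitm3 UMIs were also deeper than those without Ifitm3. Their medians were 6793 against 1848 UMIs in B cells and 7640 against 4916 UMIs in alveolar macrophages. The part of depth in these marker shares was not tested.

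Ifitm2 was found in 95.95% of neutrophils, 93.33% of nonclassical monocytes, 84.19% of cDC2 and 24.48% of alveolar macrophages, against 3.971% of B cells. After thinning these were 89.6%, 74.96%, 38.15% and 5.708%, against 2.076%. Ifitm6 was found in 68.99% of nonclassical monocytes, 67.35% of classical monocytes, 21.62% of neutrophils and 15.1% of cDC2, against 1.083% of B cells. Ifitm1 was found in 60.81% of neutrophils and 17.23% of cDC2, the latter 4.733% when thinned.

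**Figure D2:**
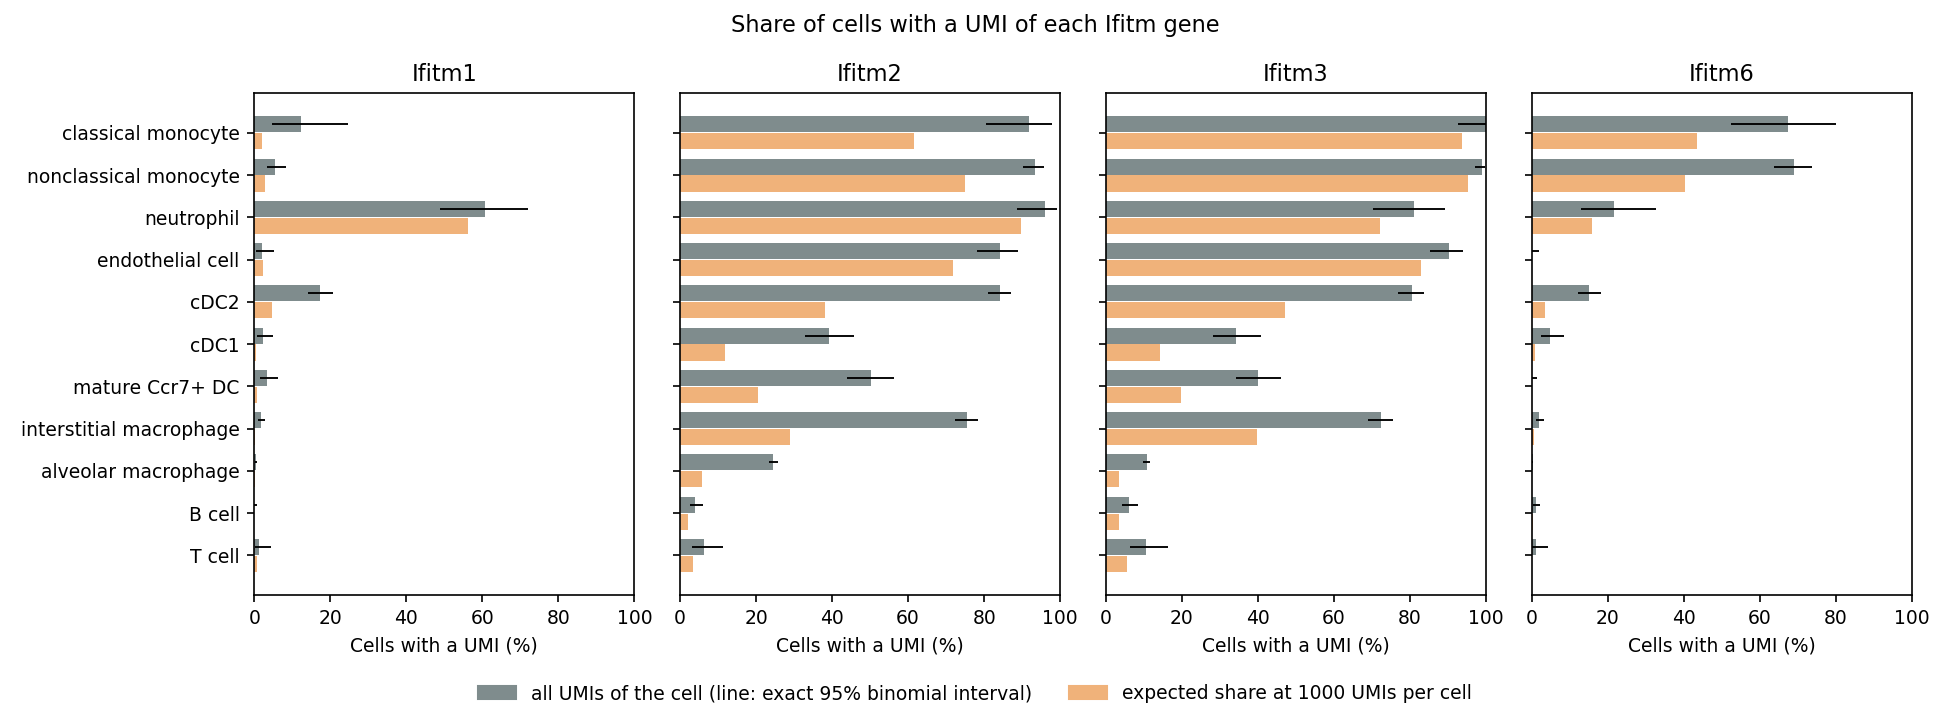
Share of cells (%) with at least 1 UMI of each Ifitm gene in each class, for all UMIs of a cell and for cells thinned to 1000 UMIs. Ifitm3 stays near 95.27% in nonclassical monocytes after thinning, while in cDC2 it goes from 80.46% to 47.18%.

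The treatments differed in Ifitm3 mainly in macrophages and DCs. In alveolar macrophages, interstitial macrophages, cDC2 and mature DCs Ifitm3 was higher in the asthma and the tolerance pool than in the control pool in both lanes, and at least 2-fold with the lanes added. In nonclassical monocytes, where the level was high in every pool, it differed little. Ifitm2 differed by less than 2-fold in all of these classes. The asthma and tolerance values below share the control pool, and each treatment is 1 pool of mice, so no test between treatments was possible.

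In alveolar macrophages the control lanes held 11 and 9.874 CPM of Ifitm3, the asthma lanes 80.54 and 102.9 CPM, and the tolerance lanes 139.5 and 108.1 CPM. Every asthma and tolerance library lay above both control libraries, with folds of 8.837 (7.361–10.68) for asthma and 11.79 (9.785–14.29) for tolerance. Since cells of the 3 pools were mixed in each lane, free RNA of a lane reaches all of them, and its part in the result was not tested. The control level was 10.4 CPM with the lanes added. The share of alveolar macrophages with an Ifitm3 UMI was 3.856% in the control, 15.33% in the asthma and 21.3% in the tolerance pool, and cells with a UMI held 1.473, 2.94 and 3.52 UMIs on average. Some markers of other cells moved with Ifitm3 in alveolar macrophages: the summed cDC2 markers were 132 CPM in the control, 509.8 CPM in the asthma and 855.5 CPM in the tolerance pool, with none of the 8 at 0, and the interstitial macrophage markers 44.2, 112.4 and 118.9 CPM, with 0, 0 and 1 of 8 at 0. The nonclassical monocyte markers were 374.6, 276.7 and 288.6 CPM and the classical monocyte markers 409.5, 342.7 and 335.7 CPM, highest in the control, with none at 0. The part of other cells in the result was not tested.

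In interstitial macrophages Ifitm3 was 139.7 and 174.4 CPM in the control lanes, 783.2 and 802.1 CPM in the asthma lanes and 878.8 and 940 CPM in the tolerance lanes. The groups did not overlap, and the folds were 5.046 (3.592–7.319) and 5.799 (4.14–8.391). The control pool gave 44 such cells, and the folds fell to 2.5 and 2.834 when a lead of 1 marker sufficed for the class. Summed classical monocyte markers in these cells were 721.3 CPM in the control, 1032 CPM in the asthma and 1107 CPM in the tolerance pool, with 1, 0 and 0 of 6 at 0. The cDC2 markers were 906.2, 1567 and 1240 CPM and the alveolar macrophage markers 430, 2227 and 1102 CPM. Their part in the result was not tested.

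In cDC2 Ifitm3 was 444 and 477.4 CPM in the control lanes, 1286 and 1266 CPM in the asthma lanes and 1215 and 891.9 CPM in the tolerance lanes. Again no library of the OVA-treated pools overlapped the control, and the folds were 2.755 (2.413–3.157) for asthma and 2.223 (1.935–2.562) for tolerance. The share of cDC2 with a UMI was close in the 3 pools, at 78.41%, 79.69% and 83.23%, while cells with a UMI held 3.435, 12.47 and 10.64 UMIs. With classes from clusters the folds were 1.759 and 1.57, below 2, and with a lead of 1 marker 2.138 and 1.813. Summed classical monocyte markers in cDC2 were 614.8 CPM in the control, 1381 CPM in the asthma and 1506 CPM in the tolerance pool, with 4, 0 and 2 of the 6 markers at 0, and mature DC markers 21.47, 421 and 340.2 CPM, with 3, 0 and 2 of 6 at 0. Their part in the result was not tested.

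Mature DCs held 34.04 and 75.52 CPM of Ifitm3 in the control lanes, 415.2 and 417.9 CPM in the asthma lanes and 581.1 and 425.9 CPM in the tolerance lanes. The folds of 7.435 (3.577–18.6) and 9.028 (4.299–22.76) rested on 7 control UMIs in 28 cells. Summed classical monocyte markers in mature DCs were 8.002 CPM in the control, 130 CPM in the asthma and 115.3 CPM in the tolerance pool, with 5, 0 and 2 of 6 at 0, and their part in the result was not tested. In cDC1 the lanes disagreed: the control lanes held 330.9 and 16.05 CPM, the asthma lanes 158 and 733.5 CPM and the tolerance lanes 253.5 and 253.5 CPM. The cDC1 fold for asthma was 2.373 with the lanes added but 0.4775 in lane 1 and 45.71 in lane 2, so no direction can be read for this class. Nonclassical monocytes held 3677 and 3629 CPM in the control lanes, 3878 and 3602 CPM in the asthma lanes and 4702 and 3891 CPM in the tolerance lanes, with folds of 1.017 (0.9374–1.105) and 1.154 (1.057–1.261). The asthma and control lanes of the monocytes overlapped.

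Against these folds stands what all genes did. At least 2-fold higher in the asthma than in the control pool, among genes with at least 20 UMIs in both pools together, were 3.19% of genes in alveolar macrophages, 11.9% in interstitial macrophages, 9.97% in cDC2, 6.73% in cDC1, 14.6% in mature DCs and 5.33% in nonclassical monocytes. For tolerance over control these were 3.79%, 10.3%, 8.96%, 7.16%, 11.2% and 3.53%. Ifitm3 passed 2-fold in 5 of 6 classes for asthma and in 4 of 6 for tolerance, and Ifitm2 in 0 of 6 for either. As the treatments were in view when the genes were chosen, nothing is read from these counts. In alveolar macrophages 74 of 11120 genes had a larger asthma fold than Ifitm3 and 74 of 10965 a larger tolerance fold, in mature DCs 19 of 5249 and 11 of 3196, and in nonclassical monocytes 2492 of 4894 and 1227 of 3907.

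**Figure D3:**
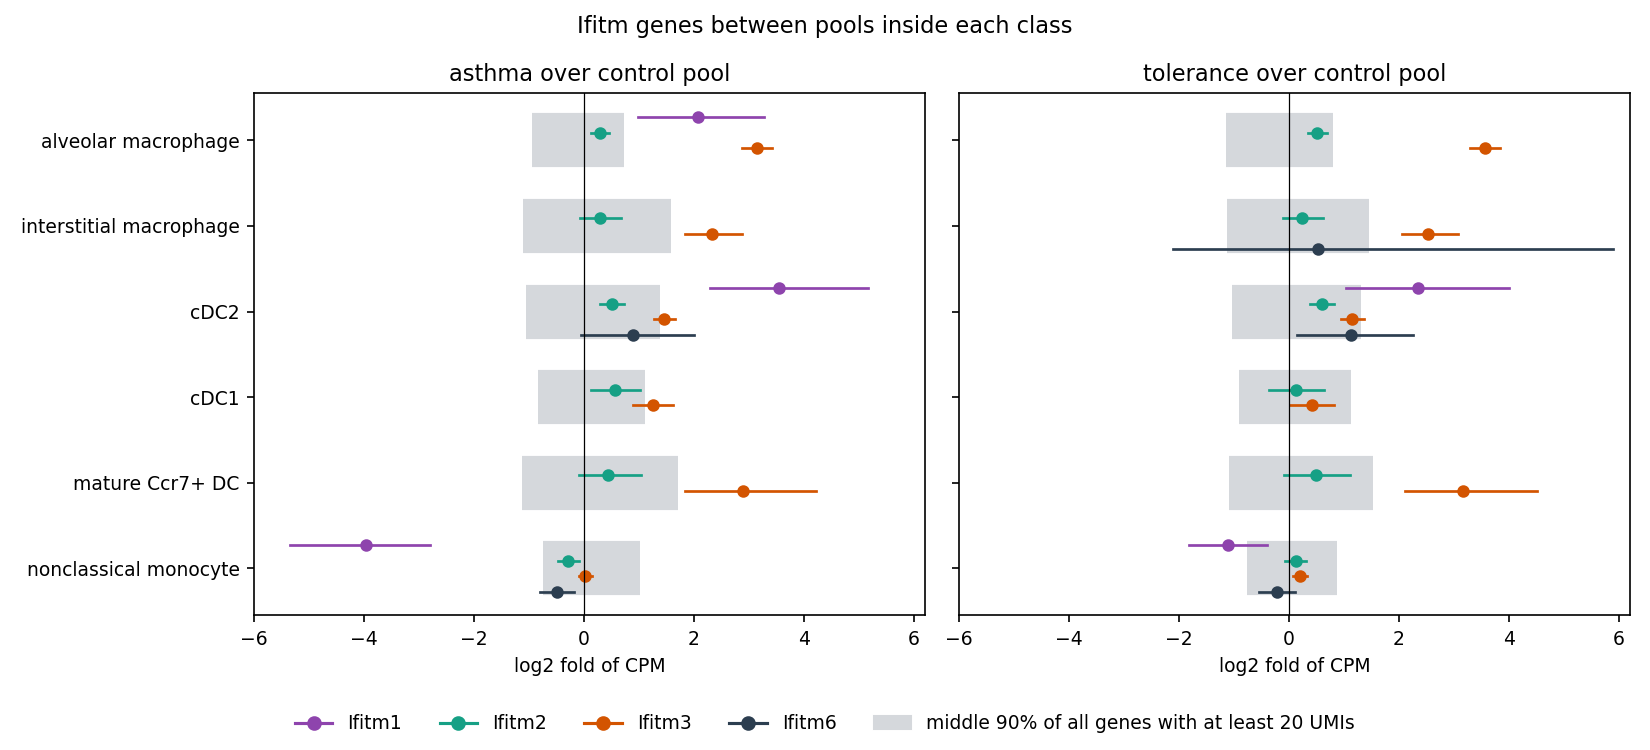
Log2 fold of each Ifitm gene with at least 20 UMIs in the asthma or tolerance pool over the control pool, by class, with 95% counting intervals; the grey band holds the middle 90% of all genes of the class. Ifitm3 lies above the band in alveolar macrophages (folds of 8.837 and 11.79), and Ifitm2 lies nearer to 0 than Ifitm3 in the macrophages.

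Ifitm2 varied less between the treatments. In alveolar macrophages its lanes held 52.26 and 58.1 CPM in the control, 61.07 and 74.41 CPM in the asthma and 75.03 and 83.09 CPM in the tolerance pool, with folds of 1.226 and 1.433. The OVA lanes were all above the control lanes, by a margin small beside that of Ifitm3. In interstitial macrophages the Ifitm2 folds were 1.223 and 1.184, in cDC2 1.421 and 1.514, and in mature DCs 1.36 and 1.408. In nonclassical monocytes the asthma fold was 0.8209 (0.7221–0.9346) and the tolerance fold 1.09.

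The balance of the 2 genes inside a class therefore differed by treatment. Alveolar macrophages held 5.321 (4.428–6.434) Ifitm2 UMIs per Ifitm3 UMI in the control pool, 0.7381 in the asthma pool and 0.6469 in the tolerance pool. Interstitial macrophages went from 1.971 in the control to 0.4775 and 0.4024, and cDC2 from 0.8903 to 0.4593 and 0.6064. Nonclassical monocytes had 0.44, 0.3551 and 0.4156, with less difference between treatments. These ratios compare pools of 1 class and not the amounts of the 2 transcripts, since their reads were not equally placeable.

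Ifitm1 and Ifitm6 were too sparse in macrophages for a comparison of the treatments. In cDC2 Ifitm1 was 17.59 and 3.51 CPM in the control lanes, 69.88 and 146.2 CPM in the asthma lanes and 80.06 and 27.19 CPM in the tolerance lanes. Its folds of 11.62 (4.92–36.05) and 5.068 (2.065–16.12) rested on 5 control UMIs in 88 cells. With classes from clusters the tolerance fold was 0.957. In neutrophils, which had its highest level among classes of at least 20 cells, Ifitm1 was 2794 and 2580 CPM in the control lanes. It was 860.3 and 1882 CPM in the asthma and 2507 and 3216 CPM in the tolerance lanes, from 18 to 30 cells per pool. Single cells decided some values: in alveolar macrophages of the asthma pool 1 cell held 20 of the 27 Ifitm1 UMIs, and in control nonclassical monocytes 1 cell held 40 of 44. Without these cells the levels were 0.8267 and 19.08 CPM.

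Ifitm6 in nonclassical monocytes was 693.2 and 578 CPM in the control lanes, 466.3 and 423.6 CPM in the asthma lanes and 593.6 and 497.1 CPM in the tolerance lanes. Both asthma lanes lay below both control lanes, with a fold of 0.7079 (0.572–0.8789), and the tolerance lanes overlapped the control with 0.8601. In cDC2 Ifitm6 had the opposite direction, with 17.59 and 21.06 CPM in the control, 37.27 and 35.14 CPM in the asthma and 35.58 and 47.9 CPM in the tolerance lanes. The cDC2 folds were 1.847 (0.9594–3.983) and 2.188 (1.108–4.807). They turned to 0.5359 and 0.5965 with classes from clusters and to 0.8206 and 0.746 with a lead of 1 marker, so the direction of Ifitm6 in cDC2 depended on where the class was drawn.

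Ifitm3 was one of many interferon-induced genes that differed between the treatments. Of 30 genes known as interferon-induced effectors, 29 were counted. In alveolar macrophages 28 of 28 with enough UMIs were at least 2-fold higher in the asthma pool and 29 of 29 in the tolerance pool, beside the 3.19% and 3.79% of all genes, with medians of 4.09 and 4.67 on the log2 scale beside −0.12 and −0.14 over all genes. Oas3, which makes the messenger that activates RNase L, was 1.215 CPM in the control, 86.86 CPM in the asthma and 105.9 CPM in the tolerance pool. Rsad2, which makes a chain-terminating nucleotide, was 1.139, 52.16 and 109.1 CPM, and Isg15, a ubiquitin-like modifier, 8.429, 263.5 and 350.9 CPM. Bst2, which tethers budding virions and like the Ifitm proteins acts at membranes, was 90.82, 560.1 and 630.6 CPM, with folds of 6.167 and 6.944.

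The other classes followed in part. In interstitial macrophages 18 of 26 effectors passed 2-fold for asthma and 23 of 28 for tolerance, beside 11.9% and 10.3% of all genes, and in cDC2 17 of 24 and 17 of 23, beside 9.97% and 8.96%. In cDC1 12 of 18 and 10 of 17 passed, beside 6.73% and 7.16%, and in mature DCs 13 of 25 and 16 of 18, beside 14.6% and 11.2%. In nonclassical monocytes 2 of 15 and 4 of 12 passed, beside 5.33% and 3.53%. None was 2-fold lower in any of these. In nonclassical monocytes, where Ifitm3 stood near 1-fold, Bst2 had folds of 1.25 and 1.32 and Ifi27l2a, a small mitochondrial interferon-induced protein, 1.526 and 1.576. Among the effectors that passed there were Xaf1, with 8.073 and 12.96 on 1 control UMI, and Rsad2, with 2.422 and 3.07.

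Of 14 interferon receptors and signalling genes, 6 were at least 2-fold higher in alveolar macrophages in either comparison, beside 3.19% and 3.79% of all genes. They were led by Irf7, the factor that amplifies type I interferon, with 4.101 CPM in the control, 114.7 CPM in the asthma and 155.9 CPM in the tolerance pool. Stat2 and Irf9, which act at the ISRE, had smaller folds, 4.246 and 4.846 for Stat2 and 4.106 and 3.78 for Irf9. The feedback inhibitor Socs1 had folds of 8.452 and 7.824. The receptor chains were near 1, with 0.8642 and 0.9611 for Ifnar1 and 0.9124 and 0.8514 for Ifnar2, as was the kinase Jak1 with 1 and 1.065. In interstitial macrophages 5 and 4 of these 14 genes were 2-fold higher, beside 11.9% and 10.3% of all genes. They included Irf7, with folds of 24.51 and 35.33, and Stat2, with 10.16 and 12.71, each on 1 control UMI. Irf1, which was 4.383-fold and 3.76-fold higher in alveolar macrophages, had folds of 0.4441 and 0.555 in interstitial macrophages. In cDC2 3 and 2 of the 14 passed, beside 9.97% and 8.96% of all genes, counts too small to set apart from that background. Among them were Irf7, with folds of 28.02 and 25.53 on 2 control UMIs, and Jak2, with 3.03 and 2.576. Ifngr1, a chain of the interferon-γ receptor, had 0.5184 and 0.4651.

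The genes of enzymes that act on Ifitm3 protein were also compared. They were Zdhhc20, which palmitoylates it, Nedd4, which ubiquitinates it, Setd7, which methylates it, and its partner Zmpste24. None of the 3 with enough UMIs was 2-fold higher or lower in alveolar or interstitial macrophages. In cDC2 none of 4 was 2-fold higher and Nedd4 was lower, with folds of 0.3926 and 0.4674. Nedd4 was also lower in mature DCs for asthma, with a fold of 0.2579, and Zmpste24 was higher in cDC1 for tolerance, with 2.333. Zdhhc20 spanned 22.23 to 107.2 CPM over the classes. Nedd4 reached 373 CPM in endothelial cells, which were high in Ifitm3, and had no UMI in classical monocytes or neutrophils, which were high as well.

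In macrophages and DCs Ifitm3 was higher in cells that expressed other interferon-induced genes, and in nonclassical monocytes it was not. A cell was called interferon-high when it held at least 3 of 8 such genes (Isg15, Ifit1, Ifit2, Ifit3, Rsad2, Cxcl10, Oasl1, Cmpk2), all of which are also in the effector list above. Of alveolar macrophages 0.2073% were interferon-high in the control pool, 5 of 2412 cells, against 12.84% in the asthma and 20.46% in the tolerance pool. Interstitial macrophages had 4.545%, 11.23% and 21.96%, mature DCs 0 of 28 cells, 13.48% and 14.75%, and cDC2 0 of 88 cells, 5% and 5.161%.

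Over all pools, interferon-high alveolar macrophages held 382.7 CPM of Ifitm3 and the others 22.55 CPM, a fold of 16.97 (15.27–18.87) with 17.09 and 16.87 in the 2 lanes. The pools enter these groups, and those of the other classes below, unequally. Within the asthma pool the levels were 395 against 35.68 CPM and within the tolerance pool 374.4 against 41.41 CPM, both smaller folds. The control pool had only 5 interferon-high cells. The 397 interferon-high of the 4972 cells held 995 of the 1539 Ifitm3 UMIs of the class. They were somewhat deeper, with a median of 6182 UMIs against 4913, yet after thinning to 1000 UMIs 22.62% of them held Ifitm3 against 1.912% of the others. In cDC2, by contrast, the 24 interferon-high cells held 626 Ifitm3 UMIs and the others 4164. The fold was 3.004 (2.825–3.195) in interstitial macrophages, 2.963 in cDC2, 6.432 in mature DCs and 11.32 in cDC1. Ifitm2 had folds of 1.705 in alveolar macrophages, 0.9196 (0.8162–1.034) in interstitial macrophages and 1.265 in cDC2. In nonclassical monocytes, with 7 interferon-high cells, Ifitm3 was 3648 CPM in these and 3855 CPM in the others.

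In macrophages, cDC2 and mature DCs the treatment difference did not lie in the interferon-high cells alone. Among alveolar macrophages with none of the 8 genes, Ifitm3 was 9.554 CPM in the control, 17.88 CPM in the asthma and 30.97 CPM in the tolerance pool, and with 1 or 2 of them 14.64, 61.8 and 54.43 CPM. Without interferon-high cells the folds over control in alveolar macrophages were 3.605 and 4.184, down from 8.837 and 11.79. In interstitial macrophages they were 4.841 and 4.444, so they fell less there. Those with none of the 8 genes held 145.3 CPM in the control, 437.5 CPM in the asthma and 367.1 CPM in the tolerance pool. Without interferon-high cells the folds in cDC2 were 2.549 and 1.965 and in mature DCs 4.366 and 4.489. In cDC1, where the lanes disagreed, they were 1.437 for asthma and 0.3065 (0.1942–0.4725) for tolerance, the latter below the control. Ifitm2 in interstitial macrophages hardly moved with the number of these genes, with 410.1, 337.5 and 374.2 CPM for 0, 1 or 2, and at least 3 of them in the asthma pool.

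**Figure D4:**
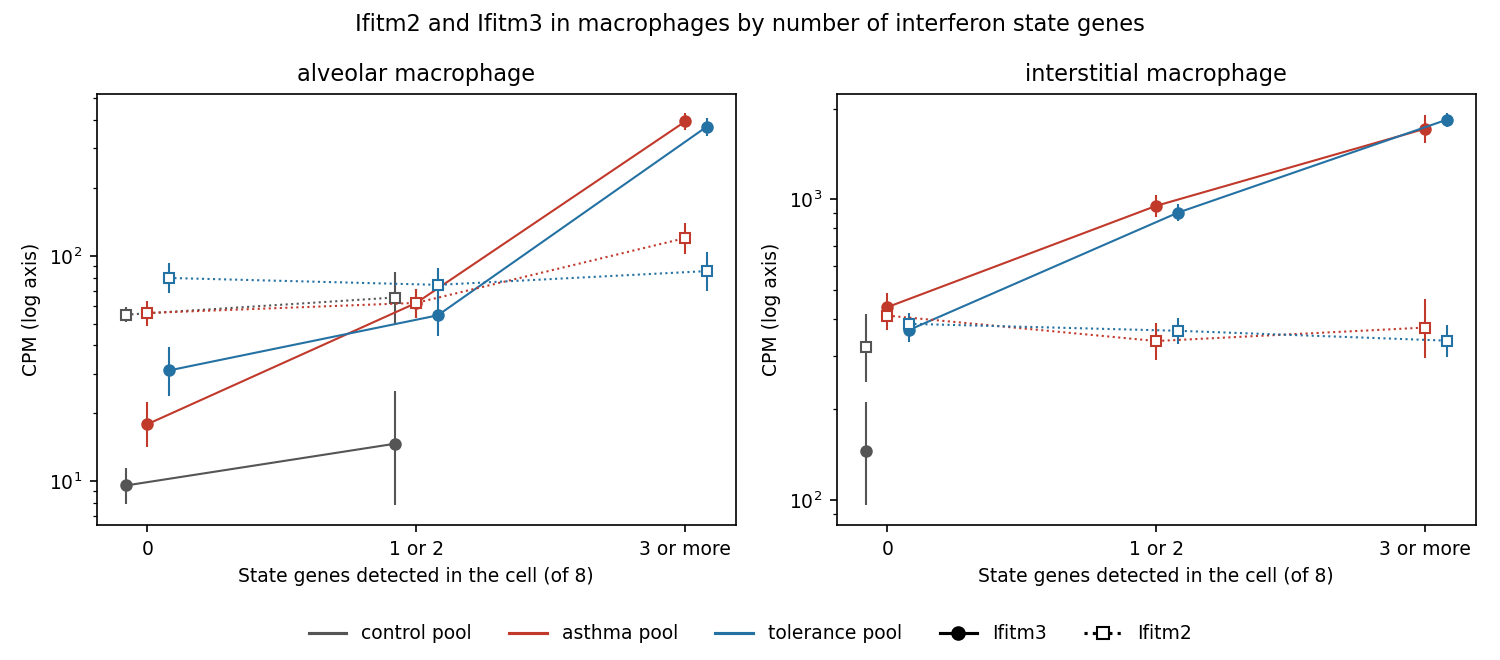
CPM (log axis) of Ifitm3 (filled circles) and Ifitm2 (open squares) in macrophages with 0, 1 or 2, and 3 or more of 8 interferon-induced genes, by pool, with exact Poisson 95% intervals; groups under 20 cells are left out. Ifitm3 climbs with the number of these genes, to 395 CPM in asthma and 374.4 CPM in tolerance alveolar macrophages, while Ifitm2 moves less.

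The cDC2 were not uniform in the 4 genes. Cells were set apart by UMIs of state genes other than the Ifitm family, with at least 2 UMIs against 0, and the states are not exclusive. Cd209d, Cd209e and Clec4b1 are also markers of the cDC2 gate. Cells with and without them thus entered the class on different markers, and the part of this in the folds was not tested. Ifitm1 was higher in cDC2 with Klrd1 or Cd7, both known from lymphoid cells, and in cDC2 with the lectins Cd209d or Cd209e. It was lower in cDC2 with Trf (transferrin) or the lectin Clec4b1. Cycling cDC2 held less Ifitm3, Ifitm2 and Ifitm6, also with the pools added.

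In 281 cDC2 with Klrd1 or Cd7, Ifitm1 was 116.3 CPM against 30.96 CPM in 190 without, a fold of 3.757 (2.691–5.372) with lanes of 5.389 and 3.119. Ifitm2 had a fold of 1.663, Ifitm3 1.407 and Ifitm6 1.874. The pools enter these groups unequally, but within the asthma pool Ifitm1 was 178.1 against 42.53 CPM and within the tolerance pool 66.93 against 14.43 CPM. For Ifitm3 the pools differed: 446.8 against 458.1 CPM in the control, 1566 against 897.9 CPM in the asthma and 1050 against 972.3 CPM in the tolerance pool.

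In 207 cDC2 with Cd209d or Cd209e, Ifitm1 was 137.8 CPM against 38.54 CPM in 273 without, a fold of 3.575 with lanes of 2.2 and 5. Ifitm3 did not separate them, with 1066 and 1083 CPM, a fold of 0.984 (0.9244–1.047). Ifitm6 was lower in them, 21.2 against 54.47 CPM, with a fold of 0.3891 and lanes of 0.6623 and 0.2463. Within the asthma pool Ifitm6 was 23.59 against 60.54 CPM, and within the tolerance pool 18.01 against 66.35 CPM. The control pool held 7 cells with these lectins and 69 without. Ifitm1 and Ifitm6 thus ran in opposite directions over this state.

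In 276 cDC2 with Trf or Clec4b1, Ifitm3 was 841.6 CPM against 1481 CPM in 182 without, a fold of 0.5682 with lanes of 0.7332 and 0.4657, and Ifitm1 was 29.02 against 157.4 CPM, a fold of 0.1844. Here pool and state are entangled, since 78 control cells were positive and 1 was negative. Within the asthma pool Ifitm3 was 1021 against 1609 CPM and within the tolerance pool 876.6 against 1220 CPM, the same direction with a smaller fold. In 70 cycling cDC2 Ifitm3 was 397.5 CPM against 1262 CPM in the other 493, a fold of 0.3149, and the folds of Ifitm2 and Ifitm6 were 0.5264 and 0.2378. The pools were added for the cycling cells as well, and their part in these folds was not tested.

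**Figure D5:**
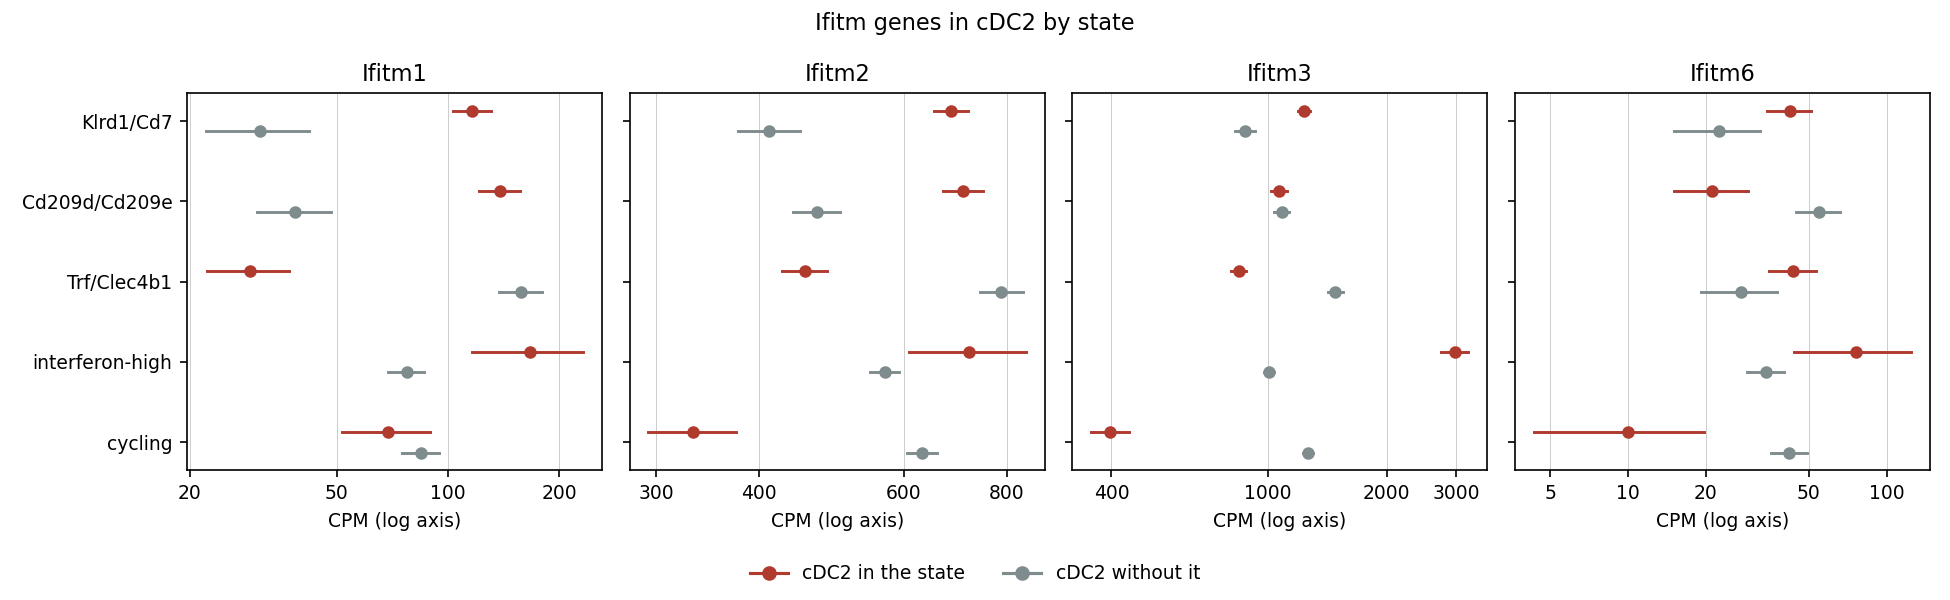
CPM (log axis) of the 4 Ifitm genes in cDC2 in each state and without it, 3 pools added, with exact Poisson 95% intervals. Ifitm1 is higher with Klrd1 or Cd7 and with Cd209d or Cd209e and lower with Trf or Clec4b1, and Ifitm3 is highest in interferon-high cDC2, at 2984 CPM against 1007 CPM in the others.

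Few cDC2 carried most of the Ifitm1 of the class. The 17 cDC2 with at least 5 Ifitm1 UMIs held 63.28% of its UMIs, and the top cell held 52 of 354. Ifitm1 was found in 29.41% of 85 cDC2 with Ifitm6 and in 15.06% of 478 without, at median depths of 7020 and 7185 UMIs. Ifitm3 was found in 86.5% of 474 cDC2 with Ifitm2 and 48.31% of 89 without, at unequal depths of 7703.5 and 5186 UMIs.

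Endothelial cells also differed among themselves, by a split chosen after their values were seen. The 135 cells with more Gpihbp1 and Plvap, genes of the general capillary, held 4752 CPM of Ifitm3, with a UMI in 97.78% of them. The 50 cells with more Ednrb and Car4, genes of the capillary that faces the airspace, held 930.2 CPM, with a UMI in 70%. The fold was 5.109 (4.223–6.229), with 4.352 and 5.862 in the 2 lanes, while that of Ifitm2 was 1.459.

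Across the 12 classes of at least 20 cells, Ifitm2 and Ifitm3 had Pearson r = 0.95 on log2(CPM + 10), and the other pairs of members 0.54 to 0.69. The 12 points share lanes and libraries, and r is given as a description. Among 6407 genes that were no gate markers and reached 50 CPM in a class, the genes most like Ifitm1 were Pram1 (r = 0.95), an adaptor of neutrophils, Ptgs2 (0.9), the inducible cyclooxygenase, and Il1r2 (0.88), the decoy receptor of interleukin 1. Most like Ifitm3 apart from Ifitm2 were Nhsl2 (0.91), Zfp467 (0.87), Ifnar2 (0.84), a chain of the type I interferon receptor, and Xdh (0.84), xanthine dehydrogenase. For Ifitm2 these were Map3k3 (0.89), a kinase, and Zfp467, Mid1ip1 and Tmem88 (0.88), and for Ifitm6 Gm9733 (0.97) and Hp (0.9), haptoglobin.

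Of the other Ifitm genes, Ifitm10, at chr7:142325835-142373779, was found in 467 alveolar macrophages, 19.42 CPM in all. There it ran against Ifitm3, with 25.74 CPM in the control, 13.81 CPM in the asthma and 12.4 CPM in the tolerance pool, folds of 0.5364 (0.4309–0.6637) and 0.4818. Ifitm10 was 55.67 CPM in endothelial cells and had its highest level in 25 natural killer cells, 199 CPM (90.97–377.7), with a UMI in 7 of them. Ifitm5, the bone-restricted member next to Ifitm2, and Ifitm7 on chromosome 16 had at most 6 UMIs in any class.

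The 1653 cells in no class held a disproportionate part of the family, 35.67% of the Ifitm1, 33.61% of the Ifitm2, 42.42% of the Ifitm3 and 33.57% of the Ifitm6 UMIs in 16.77% of the cells. Their level of Ifitm3 was 1360 CPM. The class values above therefore describe the cells whose markers were clear.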

How the data were processed

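Single-cell libraries (10x 3′ chemistry) of 3 pools of mice in 2 lanes were aligned by the authors to mm10 (Cell Ranger 3.1.0, which runs STAR) and demultiplexed by hashtag with Seurat 3.1.5. The deposited matrices hold raw UMI counts per gene and barcode; hashtag counts in the deposited files were used to check the pool of each barcode. Kept cells had at least 500 genes, at most 20000 UMIs and no more than 20% of them mitochondrial. Also left out were the highest 2% of Scrublet scores per lane (scanpy 1.11.5), which removed 232 of 10088 cells. The gene floor is a choice of this work. Classes were gated per cell on at least 3 distinct markers, 5 marker UMIs and a lead of 2 markers over 15 other types. UMIs were summed per class, pool and lane and scaled to 1000000. Intervals are exact Poisson for levels, Clopper-Pearson for shares and conditional binomial for folds (95%). No test was run: each treatment is 1 pool and the lanes are technical. The members, gene lists and gates were chosen with earlier results of these data known, and the gate limits, the lead, the endothelial split and 5 alternatives after looking at the data. Named genes were the 4 members, the other Ifitm genes, the 5 genes most like each member and the genes of the interferon lists. Mx2 was not analysed here. Thinned shares are the expected shares at 1000 UMIs per cell, with shallower cells left out. Counting and folds were tested on simulated data. Alternatives were clusters (Leiden, resolution 1.5), other gates and floors, single lanes, other totals, cell means and the removal of top cells.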

Additional observations from a re-analysis of the deposited data

Results flagged for a closer look

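In 6 comparisons the folds over control were below 1 in both technical lanes of 1 class and above 1 in both lanes of another class under the same treatment. In each case the difference between the classes was not tested, as a treatment is 1 pool of mice. For Ifitm2, asthma over control was 0.9905 and 0.7296 in the lanes of nonclassical monocytes, so that lane 1 hardly differed from the control. The lanes gave 1.168 and 1.281 in alveolar macrophages, and the ratio of the 2 folds with the lanes added was 1.493. The ratio was 1.489 for interstitial macrophages (1.084 and 1.407), 1.731 for cDC2 (1.453 and 1.396) and 1.657 for mature DCs (1.386 and 1.333).

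Compared within each lane, Ifitm6 was lower in nonclassical monocytes and higher in cDC2 in both treatments, though the tolerance and control lanes of the monocytes overlapped. For asthma the lanes were 0.6728 and 0.7329 in the monocytes and 2.119 and 1.668 in cDC2, a ratio of 2.609. For tolerance they were 0.8564 and 0.8601 against 2.023 and 2.274, a ratio of 2.544. The cDC2 direction of Ifitm6 reversed with classes taken from clusters and with a lead of 1 marker.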

How the results depend on the processing

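The class border limits the comparison of the pools: with a lead of 1 marker or with clusters the Ifitm3 folds below were smaller. No paired analysis was possible because the lanes are technical repeats of the same pools and no test was run. Ifitm3 in nonclassical monocytes over alveolar macrophages (66.78) was 51.53 with no doublets removed, 82.46 as a mean over cells, 55.32 with a lead of 1 and 64.16 to 70.85 by lane. For Ifitm2 (23.54) the values were 21.39 with clusters, 21.58 at 1200 genes, 21.41 with no doublets removed, 27.67 as a mean over cells, 21.3 with a lead of 1 and 21.19 to 27.01 by lane. Ifitm6 in nonclassical monocytes over cDC2 (13.98) was 7.624 with clusters and 11.19 with a lead of 1. Ifitm1 in neutrophils over cDC2 (28.67) was 19.14 with clusters, 10.14 at 1200 genes and 33.78 as a mean over cells. Thinned shares were 95.27% and 3.572% for Ifitm3 in nonclassical monocytes and alveolar macrophages and 40.35% for Ifitm6 in nonclassical monocytes, where clusters gave 61.79%.

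The Ifitm3 folds in alveolar macrophages (8.837, 11.79) were 5.959 and 9.327 with clusters, 6.854 and 9.541 with a lead of 1, 3.605 and 4.184 without interferon-high cells, and 7.32 to 10.42 by lane for asthma. In interstitial macrophages a lead of 1 gave 2.5 and 2.834. In cDC2 clusters gave 1.759 and 1.57, a lead of 1 gave 2.138 and 1.813, and the lanes gave 1.868 to 2.737 for tolerance. Clusters reversed Ifitm1 in cDC2 for tolerance (0.957) and Ifitm6 in cDC2 for asthma (0.5359) and tolerance (0.5965), and so did a lead of 1 for Ifitm6 (0.8206 and 0.746). Of 6 classes, Ifitm2 passed 2-fold in 0 to 1 for asthma by lane and in 1 for tolerance at 1.5-fold, and Ifitm3 in 3 for asthma at 3-fold. By lane, Ifitm1 was 3.119 to 5.389 for Klrd1 or Cd7 and 2.2 to 5 for Cd209d or Cd209e, Ifitm6 0.2463 to 0.6623 for the latter, and Ifitm3 0.4657 to 0.7332 for Trf or Clec4b1, where 3 UMIs gave 0.5231 and the asthma and tolerance pools alone 0.6516. Of 289 alternative values of 31 levels of at least 20 CPM, 33 lay over 1.5 times from the value reported. The causes of these shifts were not tested.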
